A study of Homo sapiens with 29 samples.

Results

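The clustered protocadherin genes were followed in RNA sequencing libraries of IMR90 ER:RAS cells, which derive from IMR90, an established human fibroblast line from lung. Members were the genes of the count table whose symbols place them in the alpha (PCDHA and PCDHAC), beta (PCDHB) or gamma (PCDHGA, PCDHGB and PCDHGC) cluster. There were 53 of them among 28266 genes, with 15 in the alpha, 16 in the beta and 22 in the gamma cluster. By the study's description all cells carried a retroviral pLNC ER:RAS-neo construct, which encodes a fusion of the estrogen receptor with RASG12V that 4-hydroxytamoxifen (4OHT) switches on. The cells were reverse transfected with siRNA 1 day before 4OHT or the solvent DMSO was added, and RNA was collected on day 7.

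The first group, DMSO_siNT, received the solvent and a non-targeting siRNA. The second, 4OHT_siNT, received 4OHT, which turns on the oncogene and with it senescence, and a non-targeting siRNA. The third, 4OHT_siSMARCA4, received 4OHT and an siRNA against SMARCA4, a catalytic subunit (BRG1) of the remodeller SWI/SNF. Each group held 6 libraries, made with the siRNAs numbered 2 or 4. The labels also give each library a set name, a number followed by V or VM, whose meaning is not stated. All 4OHT_siNT libraries carried a VM name, whereas the other groups held both kinds. A SMARCA4 knockdown in cells without 4OHT is not among the libraries analysed here, and neither are the samples of the labels that have no column in the count table. The labels do not say that libraries of a group came from separate cultures, so p-values measure only the spread between these libraries.

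Clustered protocadherins are cell surface cadherins that bind the same isoform on a neighbouring cell, and they are best known for giving single neurons an identity of their own. Each alpha and gamma gene has its own promoter and a large variable first exon, which is spliced to constant exons that the whole cluster shares. Beta genes consist of a single coding exon and carry no constant part. In neurons a promoter is chosen when its DNA is free of methylation, CTCF binds it and cohesin brings a distant enhancer to it. The C-type genes at the end of the alpha and gamma clusters follow other rules and are less randomly chosen. Fibroblasts express part of the repertoire.

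The members lie in a row on the plus strand of chromosome 5 (GENCODE release 44, GRCh38, the build of the deposited counts). The alpha genes span chr5:140786136-141012347, the beta genes chr5:141051374-141249365 and the gamma genes chr5:141330514-141512977. Annotated exons of all 15 alpha genes share 3 segments with 2869 bases in total, and those of all 22 gamma genes share 3 segments with 2177 bases. PCDHGB4 and PCDHGA8 further share 2266 annotated exon bases, so that reads in this stretch could not be told apart. Smaller overlaps with other genes on the same strand, of 169 to 379 bases, concern PCDHB8, PCDHB9, PCDHB14, PCDHB15 and PCDHB16. Among alpha genes PCDHA10 had the largest such overlap, 2440 bases besides the shared segments. How the authors' counting treated shared bases is not given in the sources used here, and reads can also be split among beta genes of similar sequence. PCDHGC4 had 0 to 8 counts per library although it ends in the same constant exons as the other gamma genes, so reads from those exons had not been added to every gene.

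Promoter sequences were at hand for 47 of the 53 members (RefSeq, GRCh38.p14). Windows from 100 to 20 bases before the annotated gene start were compared, because a short conserved box with the letters CGCT is known from these promoters. On the sense strand the window held CGCT in 12 of 13 alpha, 12 of 14 beta and 19 of 20 gamma promoters, which is 91.5% of members against 26.6% of all 27305 promoters in the table. Within the whole 300 bases and on either strand the letters were common everywhere, in 97.9% of members and 71.9% of all promoters. In 36 promoters with a single copy it lay 38 to 95 bases before the start. A match is a description of letters and does not show that a factor binds.

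The letters around the box differed between clusters, and the following sequences show this for some of the members named in the results. They are written 5′ to 3′ on the plus strand, with CGCT in capitals.
PCDHA7, chr5:140834169-140834248: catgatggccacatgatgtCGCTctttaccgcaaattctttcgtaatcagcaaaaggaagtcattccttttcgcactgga
PCDHB2, chr5:141094515-141094594: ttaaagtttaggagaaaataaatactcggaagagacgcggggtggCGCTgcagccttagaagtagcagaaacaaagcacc
PCDHB9, chr5:141187061-141187140: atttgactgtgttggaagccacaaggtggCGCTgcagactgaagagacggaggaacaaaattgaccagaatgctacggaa
PCDHB14, chr5:141223243-141223322: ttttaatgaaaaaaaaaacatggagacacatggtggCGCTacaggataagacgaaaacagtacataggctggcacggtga
PCDHGA2, chr5:141338660-141338739: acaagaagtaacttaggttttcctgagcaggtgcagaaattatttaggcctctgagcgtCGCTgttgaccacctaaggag
PCDHGA8, chr5:141392533-141392612: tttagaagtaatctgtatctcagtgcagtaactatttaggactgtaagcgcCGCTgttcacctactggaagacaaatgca
PCDHGB5, chr5:141397847-141397926: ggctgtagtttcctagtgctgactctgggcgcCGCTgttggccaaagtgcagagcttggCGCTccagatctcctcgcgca
PCDHGC3, chr5:141475866-141475945: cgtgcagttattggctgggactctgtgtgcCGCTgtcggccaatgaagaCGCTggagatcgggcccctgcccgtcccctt
PCDHGC4, chr5:141484930-141485009: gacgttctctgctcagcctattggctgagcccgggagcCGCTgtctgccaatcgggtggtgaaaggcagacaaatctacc

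Alpha promoters mostly carried TGTCGCT, which contains the box. This longer form was found in the window of 10 of 13 alpha and 3 of 20 gamma promoters against 0.304% of all promoters. The form TGGCGCT was found in 11 of 14 beta and 2 of 20 gamma promoters, against 0.758% of all. The form CCGCTGT was found in 11 of 20 gamma promoters and in no alpha or beta promoter, against 0.63% of all. All of these counts are for the sense strand. On either strand of the 300 bases these longer forms were present in 2.15%, 4.92% and 4.72% of all promoters, in the order given. Promoters of members were also poor in CpG dinucleotides, with a median of 7 in 300 bases against 14 over all promoters.

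Libraries held 9657309 to 18039313 counts each. SMARCA4 lay between 275 and 330 CPM (read counts scaled to 1 common library size, with the TMM factors of edgeR) in 4OHT_siNT and between 70.4 and 141 CPM in 4OHT_siSMARCA4, and these groups did not overlap. The fitted difference was −1.61 ± 0.14 (log2, SE, edgeR adjusted p = 1.3e-06). The 9 fibroblast markers summed to 10050 to 34771 CPM per library. The library labelled DMSO_siNT 4-2V stood apart. Its fibroblast markers summed to 13445 CPM against 28612 to 34771 CPM in the other 5 DMSO_siNT libraries, and it had counts in 17915 genes against 16385 to 16666. Not every fibroblast marker was low there. LUM was higher, at 168 CPM against 60.4 to 93.3 CPM. DCN, at 641 CPM, and COL6A3, at 1996 CPM, lay within the other 5 (491 to 893 and 1584 to 3464 CPM). Reads of the ER:RAS construct can map to ESR1 and HRAS. The library held 29.5 CPM of ESR1 against 1034 to 1316 CPM, and 436 CPM of HRAS against 2165 to 2852 CPM. These values go against its label, so that 4-2V may not be the sample it is labelled as, which was not tested, and every DMSO_siNT value that includes it carries this doubt. Cluster sums, counts of members called and the members with the highest levels are therefore given with and without this library.

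The clusters differed widely in level. Compared per kilobase of exon that no other gene shares, the median gene in the 5 other DMSO_siNT libraries had 0.00636 CPM per kb in the alpha, 0.274 in the beta and 1.18 in the gamma cluster. The highest single genes were PCDHGC3, a C-type gamma gene with a role in dendrite branching, at 14.2 CPM per kb, and PCDHGB5 at 11 CPM per kb. PCDHB14 led the beta genes at 0.729 CPM per kb and PCDHA7 the alpha genes at 0.137 CPM per kb. The order changed in the senescent groups, where PCDHGB5 led with 12 CPM per kb in 4OHT_siNT and 7.85 in 4OHT_siSMARCA4, before PCDHGC3 with 8.44 and 3.45.

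**Figure D1:**
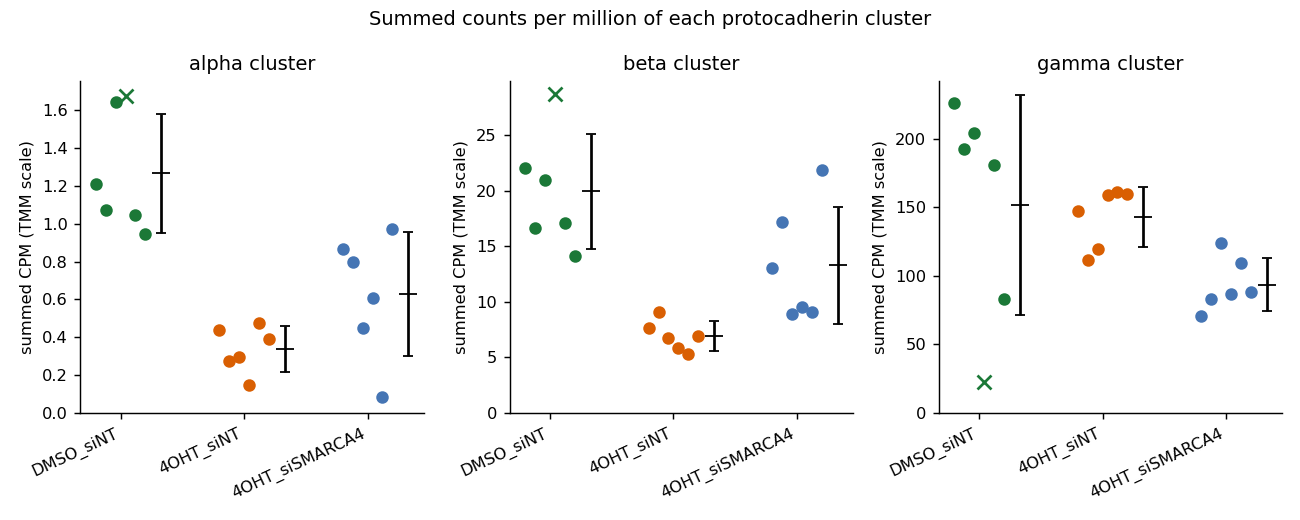
Summed CPM of each cluster (vertical axes, TMM scale, starting at 0) in every library of the 3 groups; crosses mark DMSO_siNT 4-2V, and the horizontal marks with bars are means ± SD of 6 libraries. The beta sums of 4OHT_siNT lie below those of the 6 DMSO_siNT libraries, while 4-2V is the highest beta and by far the lowest gamma library of its group.

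Alpha genes were near the limit of detection. No library had more than 23 counts over the 15 genes, none of the 15 passed the filter on low counts, and PCDHA11 and PCDHAC2, a C-type gene, had no count in any library. A count of 0 allows up to 3 counts in a library. The summed alpha level was 1.26 ± 0.316 CPM (SD, n = 6) among the DMSO_siNT libraries, 0.338 ± 0.121 CPM (SD, n = 6) with 4OHT and 0.628 ± 0.326 CPM (SD, n = 6) with the knockdown added. The 6 sums of 4OHT_siNT (0.148 to 0.478 CPM) lay below the 6 of DMSO_siNT (0.947 to 1.67 CPM), whereas those of the knockdown (0.0825 to 0.969 CPM) overlapped both groups. The log2 ratio of 4OHT_siNT to DMSO_siNT was −1.91, and −1.80 without 4-2V. PCDHA7 gave 27 counts in DMSO_siNT, 11 in 4OHT_siNT and 17 in 4OHT_siSMARCA4, over 6 libraries each. PCDHA6 gave 19, 7 and 4 counts, PCDHA4 10, 2 and 4, and PCDHA3 9, 5 and 7. These counts are too few to compare single alpha genes.

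In library 4-2V the few alpha counts were divided among the genes in other shares than in the rest of its group. Of the 15 alpha genes 10 lay within the other 5 DMSO_siNT libraries, and the counts are too few to compare single genes. PCDHA7 had 0 counts there, whereas it gave 29.4% to 42.9% of alpha counts in each of the other 5. PCDHA6 had 7 counts, 50% of the 14 alpha counts of 4-2V, against at most 17.6% in the other 5 DMSO_siNT libraries.

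Beta genes were lower in the senescent cells. Their summed level was 19.9 ± 5.19 CPM in DMSO_siNT and 6.93 ± 1.33 CPM in 4OHT_siNT (SD, n = 6 each), a log2 ratio of −1.52. The 6 sums of 4OHT_siNT (5.32 to 9.06 CPM) lay below the 6 of DMSO_siNT (14.1 to 28.7 CPM). Without 4-2V, which held the highest sum, the DMSO_siNT level was 18.2 ± 3.27 CPM (SD, n = 5) and the log2 ratio −1.39. Bulk RNA cannot tell fewer cells that express a gene from less RNA per cell.

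Of the 16 beta genes 8 passed the filter, and all 8 fell in 4OHT_siNT against DMSO_siNT (edgeR quasi-likelihood test, adjusted p under 0.05), while 28.9% of all 13136 genes tested fell. Their median log2 change was −1.38, against −0.05 over all genes. Without 4-2V, PCDHB7 also passed the filter and 9 of 9 fell, beside 30.3% of genes, with a median of −1.41 against −0.02. PCDHB2, PCDHB7 and PCDHB9 had 4 to 9, 1 to 3 and 3 to 6 counts per 4OHT_siNT library, under the minimum of the filter. They passed it through the other libraries. PCDHB5, PCDHB10 and PCDHB15 had 2 to 11, 1 to 16 and 4 to 15 counts, and PCDHB13 and PCDHB16 8 to 19 and 7 to 23. These genes had under 10 counts in some 4OHT_siNT libraries and passed in part through others. The filter thus favours a fall among the genes that passed, so that 8 of 8 and 9 of 9 are a description and no support. Each of the 8 calls held when any 1 of the 18 libraries was left out, and 6 of them with siRNAs numbered 4 alone, where PCDHB5 and PCDHB13 were lost. PCDHB1, PCDHB3, PCDHB4, PCDHB6, PCDHB8, PCDHB11 and PCDHB12 did not pass the filter in either fit and had 1 to 41 counts over the 6 DMSO_siNT libraries and 0 to 25 in 4OHT_siNT.

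PCDHB14, the beta gene with the highest level per length, lay between 2.14 and 8.49 CPM (median 3.42) in DMSO_siNT and between 1.18 and 1.87 CPM (median 1.65) in 4OHT_siNT. The groups did not overlap, and 4-2V was the highest library. For this and the genes below, the share of all genes tested whose groups did not overlap was not counted. The change was −1.31 ± 0.30 (log2, SE, edgeR adjusted p = 0.00119) and −0.97 ± 0.23 (adjusted p = 0.00138) without 4-2V.

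PCDHB9 was between 0.998 and 2.75 CPM (median 1.12) in DMSO_siNT and between 0.223 and 0.437 CPM (median 0.304) in 4OHT_siNT. These groups did not overlap either, and the change was −2.0 ± 0.39 (log2, SE, edgeR adjusted p = 0.000246), or −1.72 ± 0.36 without 4-2V. PCDHB2 was between 0.906 and 2.14 CPM (median 1.41) in DMSO_siNT and 0.297 to 0.655 CPM (median 0.541) in 4OHT_siNT, again without overlap. Its change was −1.44 ± 0.39 (adjusted p = 0.00415), and −1.41 ± 0.40 without 4-2V.

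PCDHB16 also separated the groups, with 1.92 to 4.06 CPM (median 2.78) in DMSO_siNT and 0.519 to 1.59 CPM (median 1.43) in 4OHT_siNT. Its change was −1.23 ± 0.29 (edgeR adjusted p = 0.00155), and −1.10 ± 0.28 (adjusted p = 0.00244) without 4-2V.

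PCDHB10 showed the largest fitted fall of the beta genes in the fit of all libraries. It ranged from 0.801 to 4.90 CPM (median 1.92) in DMSO_siNT and from 0.0739 to 1.11 CPM (median 0.414) in 4OHT_siNT, so that the groups overlapped. The change was −2.22 ± 0.50 (log2, SE, edgeR adjusted p = 0.000992), and −1.85 ± 0.45 without 4-2V.

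PCDHB5 was between 0.359 and 2.78 CPM (median 1.81) in DMSO_siNT and between 0.146 and 0.761 CPM (median 0.496) in 4OHT_siNT. Here 4-2V was the lowest DMSO_siNT library and the only one within the range of 4OHT_siNT. The change was −1.82 ± 0.47 (edgeR adjusted p = 0.00322), and −2.0 ± 0.42 (adjusted p = 0.000367) without 4-2V. PCDHB13 and PCDHB15 fell by 0.98 ± 0.30 and 1.30 ± 0.34 on the log2 scale, with overlapping groups. PCDHB7 fell by 3.00 ± 0.49 in the fit without 4-2V, from 0.671 to 1.43 CPM in the 5 DMSO_siNT libraries to 0.0682 to 0.222 CPM in 4OHT_siNT.

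**Figure D2:**
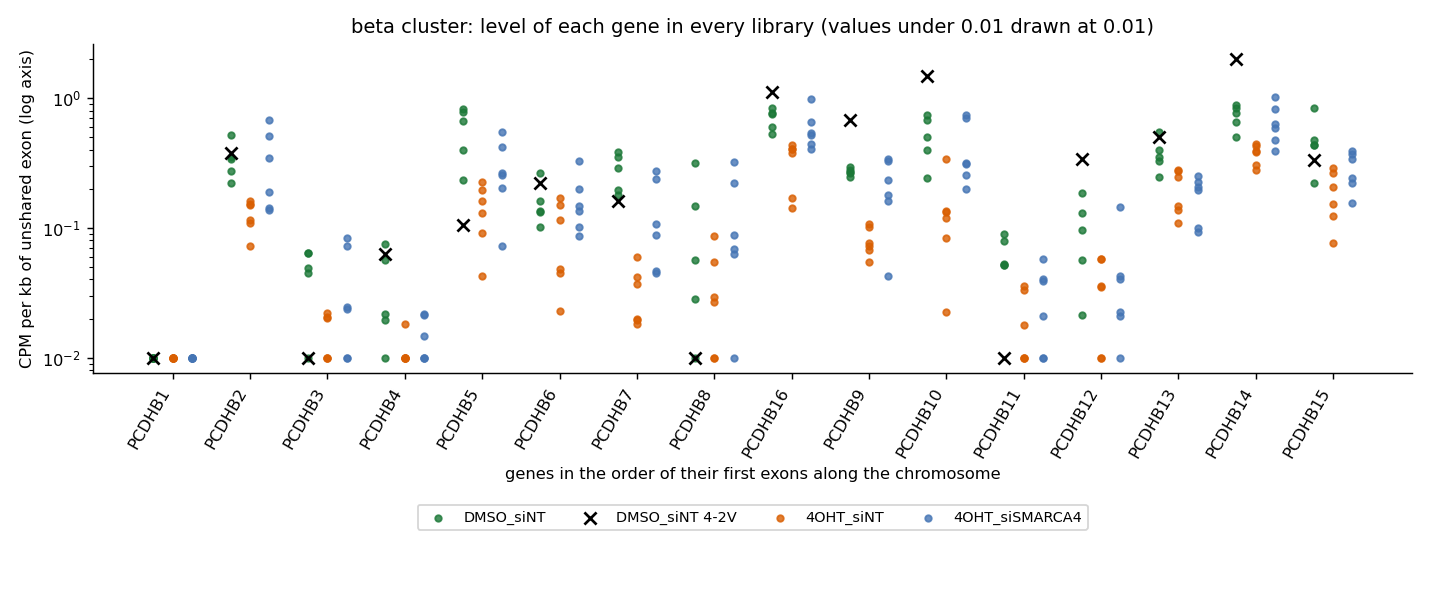
Level of each beta gene in every library, as CPM per kb of unshared exon (log axis), with genes in chromosomal order, the groups side by side in colours and DMSO_siNT 4-2V as a cross. The 4OHT_siNT points of PCDHB2, PCDHB7, PCDHB9, PCDHB14 and PCDHB16 lie below all 6 DMSO_siNT points, a separation not counted over all genes. Values under 0.01 are drawn at 0.01.

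The gamma sum differed between these groups by less than the spread of the DMSO_siNT libraries, with or without 4-2V. The sum was 151 ± 80.1 CPM in DMSO_siNT and 143 ± 22.0 CPM in 4OHT_siNT (SD, n = 6 each), a log2 ratio of −0.08. Without 4-2V the DMSO_siNT sum was 177 ± 55.0 CPM (SD, n = 5) and the log2 ratio −0.30, and without 4-3VM in place of 4-2V it was −0.20. The values of DMSO_siNT were 226, 204, 192, 181, 83.4 and 22.4 CPM, the last in 4-2V and the one before it in 4-3VM. Those of 4OHT_siNT lay between 111 and 161 CPM, inside the range of the DMSO_siNT libraries. The ratio depended on which DMSO_siNT libraries entered: with siRNAs numbered 2 in both groups it was −0.71, and with those numbered 4, which include 4-2V and 4-3VM, it was 0.78.

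Of the 22 gamma genes 21 passed the filter. In 4OHT_siNT against DMSO_siNT 3 fell (PCDHGA1, PCDHGA2 and PCDHGA8) and 1 rose (PCDHGC5), beside 28.9% of all genes tested that fell and 23.9% that rose. The median log2 change of the 21 was −0.31. Without 4-2V 9 fell, PCDHGA1, PCDHGA2, PCDHGA5, PCDHGA6, PCDHGA7, PCDHGA8, PCDHGA11, PCDHGB7 and PCDHGC3, and again PCDHGC5 rose, beside 30.3% and 27.9% of genes, and the median was −0.53. The 4 calls of the fit with all libraries held when any 1 of the 18 libraries was left out, but only that of PCDHGA8 with siRNAs numbered 4 alone.

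PCDHGA2 was between 5.38 and 10.1 CPM (median 8.93) in DMSO_siNT and between 3.39 and 6.56 CPM (median 4.51) in 4OHT_siNT, with a small overlap. The change was −0.78 ± 0.20 (log2, SE, edgeR adjusted p = 0.00268), and −0.87 ± 0.18 without 4-2V. PCDHGA8 was between 1.57 and 6.33 CPM (median 3.42) in DMSO_siNT and between 1.09 and 2.0 CPM (median 1.51) in 4OHT_siNT. The highest DMSO_siNT value was that of 4-2V and the lowest that of 2-1V, the only one within the range of 4OHT_siNT. The change was −1.25 ± 0.25 (adjusted p = 0.000293), and −1.03 ± 0.21 without 4-2V.

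PCDHGA1, the first gene of the cluster, was between 0.947 and 1.94 CPM (median 1.75) in DMSO_siNT and between 0.443 and 1.41 CPM (median 0.648) in 4OHT_siNT. The groups overlapped, and the change was −1.03 ± 0.29 (edgeR adjusted p = 0.00534). PCDHGA1 had 6 to 18 counts per 4OHT_siNT library and passed the filter in part through other libraries, which favours a fall.

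PCDHGC5, a C-type gene whose product binds GABA type A receptors in neurons, was the only member that rose, in the fit with all libraries and in that without 4-2V. It ranged from 0 to 3.14 CPM (median 2.11) in DMSO_siNT and from 2.97 to 5.68 CPM (median 4.79) in 4OHT_siNT. A single DMSO_siNT library reached into the range of 4OHT_siNT, and 4-2V was the library at 0. The change was 1.27 ± 0.45 (log2, SE, edgeR adjusted p = 0.0241), and 1.05 ± 0.34 (adjusted p = 0.0107) without 4-2V.

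The gamma genes with the highest counts did not pass the test with all libraries. PCDHGB5 was between 0.837 and 39.4 CPM (median 31.1) in DMSO_siNT and between 25.9 and 36.3 CPM (median 35) in 4OHT_siNT, with 0.38 ± 0.41 (edgeR adjusted p = 0.458), and 0.14 ± 0.19 (adjusted p = 0.551) without 4-2V. PCDHGC3 was between 2.15 and 64.4 CPM (median 47.0) in DMSO_siNT and between 17.2 and 36 CPM (median 28.6) in 4OHT_siNT. For this gene the change was −0.51 ± 0.44 (adjusted p = 0.351) with all libraries, and −0.74 ± 0.27 (adjusted p = 0.023) without 4-2V.

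PCDHGB4 gave 0.08 ± 0.36 (edgeR adjusted p = 0.86) and, without 4-2V, −0.14 ± 0.19. PCDHGA12 gave 0.62 ± 0.37 (adjusted p = 0.174) and, without 4-2V, 0.39 ± 0.20 (adjusted p = 0.1). PCDHGC4, which neurons need for survival, did not pass the filter, with 21 counts over DMSO_siNT and 13 over 4OHT_siNT.

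**Figure D3:**
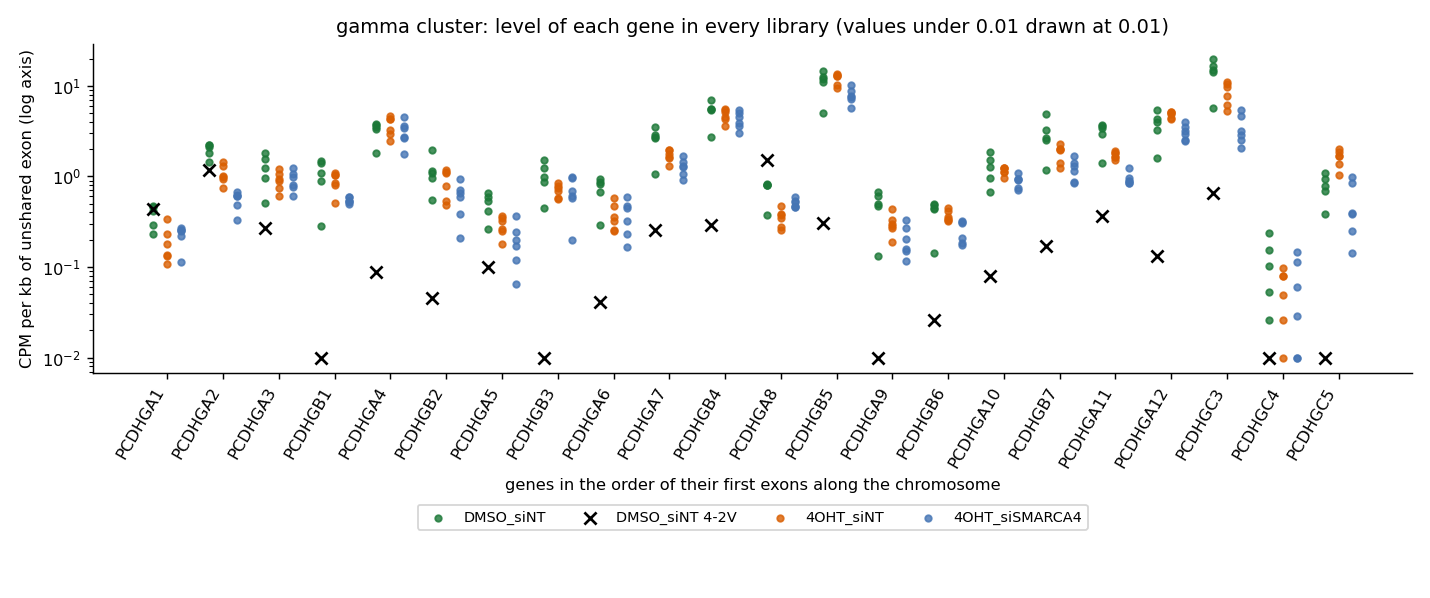
Level of each gamma gene in every library, as CPM per kb of unshared exon (log axis), with genes in chromosomal order, the groups side by side in colours and DMSO_siNT 4-2V as a cross. The cross lies under the points of the other DMSO_siNT libraries for 20 of 22 genes, within them for PCDHGA1 and above them for PCDHGA8; values under 0.01 are drawn at 0.01.

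The composition of the gamma cluster also differed. PCDHGC3 gave 22.1% to 28.5% of gamma counts in the 5 DMSO_siNT libraries other than 4-2V, 15.4% to 22.6% in 4OHT_siNT and 8.08% to 14.3% in 4OHT_siSMARCA4. PCDHGB5 gave 14.8% to 19.3%, 21.6% to 25% and 21.7% to 24.9% in the same order. In 4-2V PCDHGC3 gave 9.63% and PCDHGB5 gave 3.74%. The shares of PCDHGC3 in the 5 DMSO_siNT libraries overlapped those in 4OHT_siNT, and with 4-2V they also reached the knockdown range. The share of PCDHGC3 did not overlap between the senescent groups, whereas that of PCDHGB5 did. Such separations were not counted over other genes.

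Knockdown of SMARCA4 in senescent cells was compared with 4OHT_siNT. This comparison shares the 4OHT_siNT libraries with the one above, so that opposite signs in them are not independent. Beta genes as a sum were higher in 4OHT_siSMARCA4, at 13.3 ± 5.30 CPM against 6.93 ± 1.33 CPM (SD, n = 6 each), a log2 ratio of 0.94. The 6 knockdown libraries gave 21.9, 17.2, 13, 9.51, 9.07 and 8.92 CPM, and 1 of the 4OHT_siNT libraries, at 9.06 CPM, reached into them. The 3 highest were those made with the siRNA numbered 2. Gamma genes as a sum were lower, at 93.6 ± 19.4 CPM against 143 ± 22.0 CPM, a log2 ratio of −0.61. The highest knockdown library, 124 CPM, overlapped the lowest 4OHT_siNT libraries, 111 and 120 CPM.

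Among the 8 beta genes tested 2 rose with the knockdown, PCDHB2 and PCDHB9 (edgeR, adjusted p under 0.05), beside 4.99% of all genes tested that rose. The median log2 change of the 8 was 0.95 against 0.01 over all genes. PCDHB2 and PCDHB9, and PCDHB7 in the fit below, were under the minimum of the filter in every 4OHT_siNT library. PCDHB5, PCDHB10, PCDHB13, PCDHB15 and PCDHB16 were under it in some 4OHT_siNT libraries and passed in part through others. This favours a rise, so that the beta calls, counts and median of this comparison are a description and no support. With only the 2 groups in the fit, PCDHB10, PCDHB14 and PCDHB16 were called higher, but neither PCDHB2 nor PCDHB9. Without DMSO_siNT 4-2V, which enters this comparison only through the shared estimate of spread and the filter, 6 of 9 rose, PCDHB2, PCDHB7, PCDHB9, PCDHB10, PCDHB14 and PCDHB16, beside 11.7% of genes. Among the 21 gamma genes 2 fell, PCDHGA2 and PCDHGC5, beside 5.65% of all genes that fell, with a median of −0.55. Without 4-2V 6 fell, PCDHGA2, PCDHGA11, PCDHGA12, PCDHGB5, PCDHGC3 and PCDHGC5, beside 12.9% of genes. The log2 changes of the members named here moved little when 4-2V was left out.

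PCDHB2 was between 0.297 and 0.655 CPM (median 0.541) in 4OHT_siNT and between 0.561 and 2.75 CPM (median 1.10) in 4OHT_siSMARCA4, with an overlap. The change was 1.36 ± 0.39 (log2, SE, edgeR adjusted p = 0.0291), and 1.35 ± 0.39 (adjusted p = 0.0164) without DMSO_siNT 4-2V. PCDHB9 was between 0.223 and 0.437 CPM (median 0.304) in 4OHT_siNT and between 0.173 and 1.37 CPM (median 0.843) in the knockdown. A single knockdown library, 4-2VM, lay below the 4OHT_siNT range and the other 5 above it, and the change was 1.39 ± 0.40 (adjusted p = 0.0303). Leaving out 1 library ended the call of PCDHB2 in 6 of 18 cases and that of PCDHB9 in 7 of 18. Both were lost without 4OHT_siNT 2-3VM, 4-1VM or 4-3VM, or without knockdown 2-3V, 2-3VM or the library with no sample label of its own, and PCDHB9 also without 4OHT_siNT 4-2VM.

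PCDHB10 and PCDHB14 gave 1.57 ± 0.51 (edgeR adjusted p = 0.0549) and 0.81 ± 0.30 (adjusted p = 0.0986) with all libraries, and 1.55 ± 0.45 (adjusted p = 0.0152) and 0.80 ± 0.23 (adjusted p = 0.0148) without DMSO_siNT 4-2V. PCDHB13 gave −0.16 ± 0.31 (adjusted p = 0.799).

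PCDHGA2 was between 3.39 and 6.56 CPM (median 4.51) in 4OHT_siNT and between 1.5 and 3.05 CPM (median 2.78) in the knockdown. The groups did not overlap, and the change was −0.93 ± 0.21 (log2, SE, edgeR adjusted p = 0.00699). It was called in each of the 18 fits that left out 1 library, but not with siRNAs numbered 4 alone. This gene was thus lower in 4OHT_siNT than in DMSO_siNT and lower again with the knockdown.

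PCDHGC5 was between 2.97 and 5.68 CPM (median 4.79) in 4OHT_siNT and between 0.404 and 2.80 CPM (median 1.11) in the knockdown, with no overlap. The change was −1.65 ± 0.46 (log2, SE, edgeR adjusted p = 0.0259), and −1.65 ± 0.33 (adjusted p = 0.00128) without DMSO_siNT 4-2V. The call was lost in 6 of 18 fits, those without 4OHT_siNT 2-1VM or 4-1VM, or without knockdown 2-3V, 2-3VM, 4-2VM or the library with no sample label.

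PCDHGC3 was between 17.2 and 36 CPM (median 28.6) in 4OHT_siNT and between 6.69 and 17.7 CPM (median 9.74) in the knockdown, with a small overlap. It missed the threshold with all libraries at −1.29 ± 0.46 (log2, SE, edgeR adjusted p = 0.0808) and passed it without DMSO_siNT 4-2V at −1.29 ± 0.27 (adjusted p = 0.00191). Like PCDHGA2 and PCDHGC5, PCDHGA11 and PCDHGA12 did not overlap between the senescent groups. The share of all genes without such overlap was not counted. PCDHGA11 was between 5.47 and 6.96 CPM in 4OHT_siNT and between 3.07 and 4.54 CPM in the knockdown, with −0.85 ± 0.33 (adjusted p = 0.113) and, without 4-2V, −0.86 ± 0.19 (adjusted p = 0.00256). PCDHGA12 was between 11.6 and 14.1 CPM in 4OHT_siNT and between 6.69 and 10.8 CPM in the knockdown, with adjusted p = 0.315 in edgeR and 0.0189 without 4-2V.

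PCDHGA8 lay between 1.09 and 2.0 CPM (median 1.51) in 4OHT_siNT and between 1.91 and 2.47 CPM (median 2.08) in the knockdown, with a small overlap. Its value was 0.51 ± 0.25 (edgeR adjusted p = 0.214), beside −0.15 ± 0.36 for PCDHGB4 and −0.61 ± 0.41 for PCDHGB5, the genes before and after it. Without 4-2V, PCDHGB5 passed the test at −0.62 ± 0.18 (adjusted p = 0.0171).

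**Figure D4:**
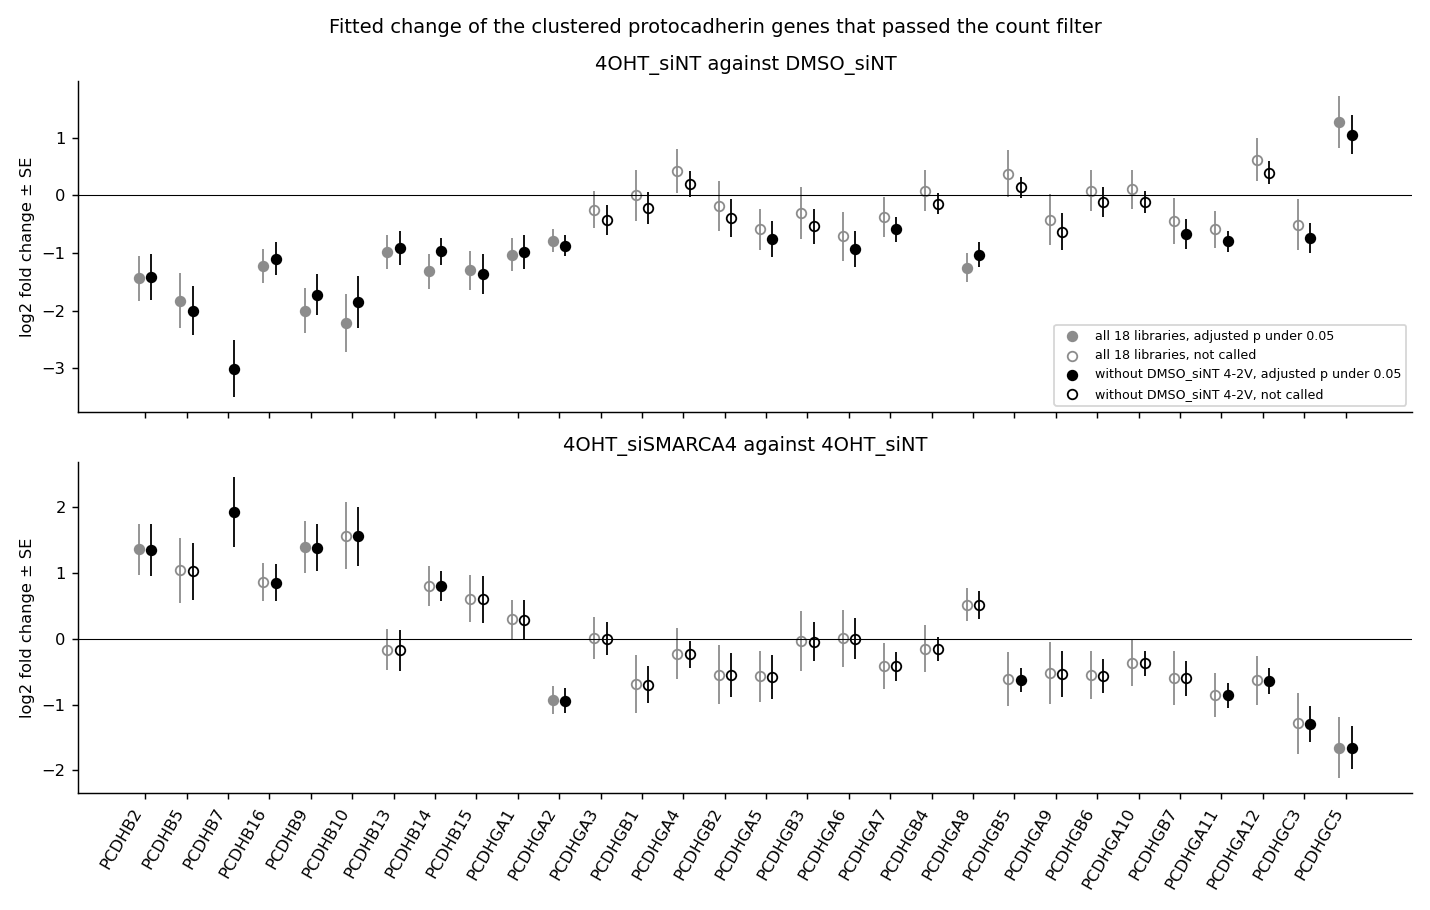
Fitted log2 fold change ± SE of the members that passed the count filter, in 4OHT_siNT against DMSO_siNT (top) and 4OHT_siSMARCA4 against 4OHT_siNT (bottom), with all 18 libraries (grey) and without DMSO_siNT 4-2V (black); filled points have adjusted p under 0.05. Beta genes lie below 0 at the top and, with the exception of PCDHB13, above 0 at the bottom, and the bars of gamma genes other than PCDHGA1 are shorter without 4-2V.

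Each SMARCA4 siRNA was also set against the control libraries with the same number, since the labels number the control siRNA too. With the siRNAs numbered 2, PCDHB2 rose by 1.84 ± 0.37, PCDHB7 by 2.35 ± 0.49 and PCDHB9 by 1.65 ± 0.45 on the log2 scale, and PCDHGA2 and PCDHGC5 fell by 0.91 ± 0.27 and 2.68 ± 0.59 (edgeR, 5 of 30 members called, beside 7.67% of all genes). With those numbered 4 no member passed the test in edgeR, with 4 at an unadjusted p under 0.05, beside 2.71% of all genes called. PCDHGA2 gave −0.97 ± 0.26 (adjusted p = 0.0551) there. The difference between these knockdown changes was tested itself, and no member passed in edgeR, with 1 of 30 at an unadjusted p under 0.05. This was PCDHB2, at 1.41 ± 0.58 (adjusted p = 0.588). Of all 13659 genes in this test 0.0146% passed, and 995 had an unadjusted p under 0.05, so that the lack of calls says little about the members. The SMARCA4 siRNAs numbered 2 and 4 were also compared directly. No member passed in edgeR, beside 0.00732% of all genes. An unadjusted p under 0.05 was reached by 6 of 30 members, beside 878 of 13659 genes. Among them PCDHB2, PCDHB5, PCDHB7, PCDHB9 and PCDHB14 were higher with the siRNA numbered 2, and PCDHGC5 was lower. PCDHB2 gave 1.72 ± 0.37 (edgeR adjusted p = 0.216). Only edgeR was run for these contrasts.

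Set names were not balanced over the groups. Among libraries with VM names, 13 members fell and 2 rose (PCDHGA12 and PCDHGC5) in 4OHT_siNT against DMSO_siNT, beside 27.9% and 25.6% of genes. With the knockdown, where 2 labelled libraries had such names, 3 rose (PCDHB2, PCDHB10 and PCDHB14) and 5 fell (PCDHGA2, PCDHGA11, PCDHGA12, PCDHGC3 and PCDHGC5), beside 8.76% and 12.2%. The log2 ratios of summed CPM within VM sets were −1.33 for beta and −0.12 for gamma in the first comparison, and 0.93 and −0.77 in the second. None of the 4OHT_siNT libraries analysed here carried a V name, so that no ratio within V sets could be computed. Set names and groups therefore cannot be told apart for the V libraries.

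The library 4-2V was low for most gamma genes. Of the 22 gamma genes 20 were below all 5 other DMSO_siNT libraries, beside 41.4% of all genes tested, and the median gamma gene was at 0.0515 of the median of those 5, against 0.928 for the median of all genes. PCDHGB5 had 7 counts, 38.8-fold below that median, PCDHGC3 had 18 counts, 22.4-fold below, and PCDHGB4 had 6 counts, 19.2-fold below. PCDHGC5 and PCDHGB1 had 0 counts, at least 6.24-fold and 7.91-fold lower on a floor of 3 counts. In total 12 of the 22 gamma genes had at most 3 counts in 4-2V.

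The gamma genes nearest to their usual level in 4-2V did not lie in 1 stretch. PCDHGA1, the first gene, had 15 counts and lay within the other libraries. PCDHGA2, the second, had 45 counts, 1.81-fold below the median of the 5. PCDHGA8 had 53 counts and was 1.85 times as high as that median, although it lies between PCDHGB4 and PCDHGB5. Together PCDHGA8 and PCDHGA2 gave 52.4% of the 187 gamma counts of 4-2V.

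Beta genes in 4-2V went in both directions. PCDHB9, PCDHB10, PCDHB12, PCDHB14 and PCDHB16 were above the other 5 DMSO_siNT libraries, beside 35.7% of all genes. PCDHB10 had 41 counts, 2.99 times the median of the 5, and PCDHB14 had 71 counts, 2.59 times. PCDHB5 had 3 counts, where the other libraries gave 0.801 to 2.78 CPM.

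DMSO_siNT 4-3VM was the next lowest library for gamma genes. It lay below the other 4 for 21 of 22 gamma genes, with a median ratio of 0.401, and for 6 of 16 beta genes, with a median ratio of 0.654, beside 34.6% of all genes tested and a median ratio of 0.967. The part of these differences in the gamma results was not tested beyond leaving the libraries out.

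**Figure D5:**
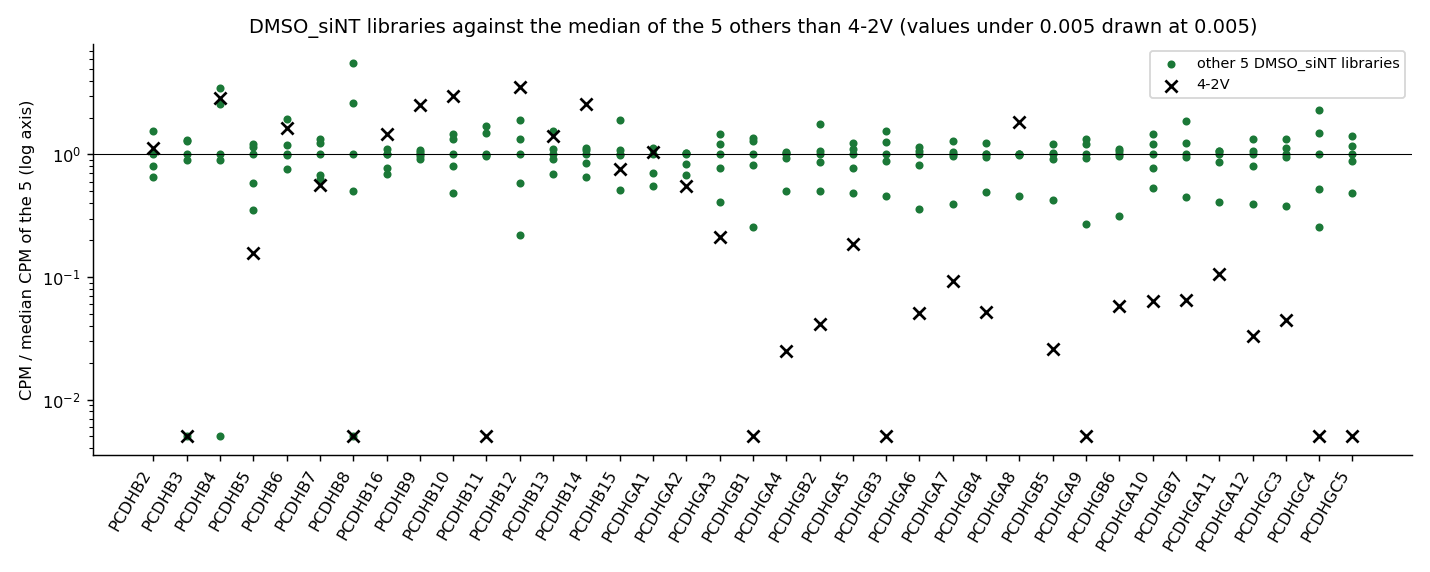
Ratio of CPM to the median of the 5 DMSO_siNT libraries other than 4-2V (log axis) for each of 37 beta and gamma genes with a median above 0, in chromosomal order; the cross is 4-2V and the points are the 5 others. Crosses lie near or above 1 for most beta genes and well under 1 for most gamma genes, with PCDHGA1, PCDHGA2 and PCDHGA8 as exceptions; ratios under 0.005 are drawn at 0.005.

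Other cadherins of the family outside the clusters were followed as a list of 11 nonclustered protocadherins, of which 5 passed the filter. PCDH1 also counts among the genes at the locus. In 4OHT_siNT 2 rose and 2 fell, beside 23.9% and 28.9% of all genes tested, and with the knockdown 3 fell, beside 5.65%. Without 4-2V 2 rose and 3 fell in the first comparison, beside 27.9% and 30.3%, and 4 fell in the second, beside 12.9%. PCDH7 was between 31.2 and 69.7 CPM in DMSO_siNT, between 5.66 and 14.0 in 4OHT_siNT and between 2.07 and 3.63 in the knockdown, with no overlap in either step. Its changes were −2.14 ± 0.22 (log2, SE, edgeR adjusted p = 1.18e-07) and −1.92 ± 0.24 (adjusted p = 6.47e-05). PCDH18 fell in both, by 0.53 ± 0.20 and 0.92 ± 0.21, PCDH10 fell by 1.40 ± 0.32 with the knockdown, and PCDH9 and PCDH1 rose by 0.57 ± 0.20 and 2.06 ± 0.48 in 4OHT_siNT.

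Of 26 regulators of the clusters, which include CTCF, cohesin and enzymes that write or erase DNA and histone methylation, all passed the filter. In 4OHT_siNT 9 fell and 2 rose, with a median log2 change of −0.03, beside 28.9% and 23.9% of all genes tested, so that the share that fell was near the background. Without 4-2V 11 fell and 2 rose, beside 30.3% and 27.9%. The cohesin subunits RAD21 and SMC3 fell by 0.66 ± 0.08 and 0.99 ± 0.14, with edgeR adjusted p = 5.55e-07 and 7.93e-06. PDS5B, a cohesin partner, SMCHD1, which represses the clusters, the DNA methyltransferases DNMT1 and DNMT3B, the 5-methylcytosine oxidase TET1, and ATF7IP and EHMT2 of histone H3 lysine methylation also fell. The cohesin loader MAU2 and the oxidase TET3 rose, by 0.36 ± 0.12 and 0.99 ± 0.18. CTCF was at 0.18 ± 0.09 (adjusted p = 0.0868). The cohesin subunits SMC1A, STAG1 and STAG2 were not called, at −0.20 ± 0.16, −0.15 ± 0.15 and 0.18 ± 0.10 (edgeR adjusted p = 0.296, 0.42 and 0.137). SMC1A and STAG1 passed without 4-2V, at −0.32 ± 0.10 and −0.26 ± 0.09 (edgeR adjusted p = 0.0111 and 0.0213). NIPBL, WAPL and PDS5A of the same list were not called in either fit.

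With the knockdown none of the 26 regulators passed in edgeR, beside 4.99% of all genes that rose and 5.65% that fell. Of the 26 regulators 4 had an unadjusted p under 0.05, and 2 were lower in DESeq2. Without DMSO_siNT 4-2V 5 fell in edgeR (SMC1A, DNMT1, DNMT3A, TET3 and EHMT1), beside 12.9% of all genes. CTCF gave 0.01 ± 0.09 there with all libraries.

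Genes beside the clusters went in both directions. Of 18 measured genes at the locus 16 passed the filter. In 4OHT_siNT 4 were higher and 4 lower, beside 23.9% and 28.9% of all genes, with a median of 0.07. Without 4-2V 5 were higher and 4 lower, beside 27.9% and 30.3%. TAF7, which lies between the beta and gamma clusters at chr5:141259884-141320784 on the minus strand, gave 0.20 ± 0.14 (edgeR adjusted p = 0.239), and 0.38 ± 0.08 (adjusted p = 0.000414) without 4-2V. HARS1 and ZMAT2 on the alpha side gave 0.84 ± 0.21 and −0.75 ± 0.17, and the other genes called were WDR55, ARAP3 and PCDH1, which rose, and HARS2, TMCO6 and FCHSD1, which fell. With the knockdown none of the 16 passed in edgeR, beside 4.99% and 5.65% of all genes that rose and fell. Of the 16 genes 3 had an unadjusted p under 0.05, and 1 was lower in DESeq2. Without 4-2V 1 rose and 3 fell, beside 11.7% and 12.9%. DIAPH1, the neighbour of PCDHGC5 on the opposite strand, gave −0.55 ± 0.23 (adjusted p = 0.147), and −0.56 ± 0.11 (adjusted p = 0.000936) without 4-2V.

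Of 11 binding partners of protocadherins in the cell, such as the kinase PTK2 and the WAVE complex, 10 passed the filter. In 4OHT_siNT the WAVE complex subunit CYFIP2 and the adaptor ABI2 rose, by 0.81 ± 0.23 and 0.24 ± 0.09, and WASF1 fell by 0.70 ± 0.13. With the knockdown CYFIP2 fell by 0.83 ± 0.23 (edgeR adjusted p = 0.0248). Over all genes tested 23.9% rose and 28.9% fell in 4OHT_siNT, and 4.99% rose and 5.65% fell with the knockdown. Without 4-2V 2 partners rose and 3 fell in 4OHT_siNT, beside 27.9% and 30.3% of genes. With the knockdown 1 rose and 2 fell in that fit, beside 11.7% and 12.9%.

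Markers of other cell types were counted beside these results. Over all genes tested 23.9% rose and 28.9% fell in 4OHT_siNT, and 4.99% rose and 5.65% fell with the knockdown. Without 4-2V these shares were 27.9%, 30.3%, 11.7% and 12.9%, in the same order. The 9 neuron markers, of which 5 passed the filter, summed to 17.9 to 28.3 CPM per DMSO_siNT library, to 29.9 to 45.5 CPM with 4OHT and to 6.22 to 19.4 CPM with the knockdown added. In 4OHT_siNT 2 rose and 1 fell, and with the knockdown 2 fell, SYT1 and NEFL, to which GAP43 was added without 4-2V. NEFL, a neurofilament gene, gave 3.38 ± 0.35 in the first comparison and −2.44 ± 0.32 in the second. In the first, SYN1 also rose, by 1.42 ± 0.35, whereas SNAP25 fell by 3.52 ± 0.43. STMN2 reached at most 0.359 CPM, RBFOX3 reached at most 0.218 CPM and ELAVL4 at most 0.0808 CPM. Of 9 fibroblast markers 5 fell and 1 rose in 4OHT_siNT, and 7 fell with the knockdown, where their sum was 10050 to 16073 CPM against 18749 to 25552 CPM in 4OHT_siNT. Without 4-2V 7 fell and 1 rose in 4OHT_siNT, and 8 fell with the knockdown. The 6 epithelial markers summed to 103 to 144, 62.4 to 78.9 and 34.1 to 57.1 CPM in DMSO_siNT, 4OHT_siNT and the knockdown, with 3 of them tested, of which 2 fell in 4OHT_siNT and 1 with the knockdown. ESRP1 and CDH1, which define epithelium, reached at most 0.159 and 0.239 CPM. The 5 endothelial markers summed to at most 12.7 CPM and the 5 leukocyte markers to at most 0.837 CPM. The part of these movements in the protocadherin results was not tested.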

How the data were processed

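The authors made directional polyA libraries (NEBNext) of IMR90 ER:RAS cells, and deposited raw read counts per gene in 2 lanes for each of 18 libraries. The submitters' processing notes name STAR 2.7.8a, hg38 and DESeq2 1.36.0, and the counting program and annotation are not given in the sources used here. Lanes were summed. Of 29 labelled samples 17 matched a library by name. The column name of 1 further library gave its group and siRNA number but matched no label, and it entered by group. Counts were tested with edgeR 4.0.16 (R 4.3.3, limma 3.58.1), with TMM scaling, filterByExpr with a minimum count of 10, and quasi-likelihood tests over the 3 groups in 1 fit without covariates. P-values were adjusted by Benjamini-Hochberg over 13136 genes with a threshold of 0.05. CPM values carry TMM scaling, and fitted log2 changes use the default prior count of the edgeR fit. A prior count of 2 was used only for the log2 values behind the correlations between set names. Intervals and floors of 3 counts cover counting error only. The procedure was tested on simulated data.

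Named in full were the 4 members of each cluster with the highest mean CPM and, in each comparison, the members called and the 5 with the largest rise and fall. Of the other lists, called genes and a few more were named, the latter, with the gene pairs beside PCDHGA8, after their values were seen. Members and lists were chosen with earlier results of these data known. Alternatives were DESeq2 1.42.0 as the test, its size factors, no filter, the 2 groups alone, single siRNA numbers, VM sets, a block on set names and leaving out each library. VM sets with the unlabelled library, and knockdown libraries of V sets alone, were added after seeing the data. Deviations of libraries that share a set name correlated at −0.23 to 0.27, so set names were not treated as pairs.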

Additional observations from a re-analysis of the deposited data

Results flagged for a closer look

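In 9 of 60 sets of 6 libraries, 1 library lay far from the others on the log2 scale, where chance gives about 3. The value given is its gap to the nearest library divided by the whole range of the group. In 7 of the 9 the library was DMSO_siNT 4-2V. It was low for PCDHGC5 (0.74), PCDHGB5 (0.721), PCDHGB4 (0.701), PCDHGA12 (0.658), PCDHGC3 (0.629) and PCDHA7 (0.776), and high for PCDHB9 (0.825). In 4OHT_siSMARCA4, PCDHB9 was low in 4-2VM (0.627), and the summed alpha cluster was low in 4-3V (0.687), which held 1 alpha count.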

How the results depend on the processing

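In 4OHT_siNT against DMSO_siNT, 1 member rose and 11 fell, beside 23.9% and 28.9% of all genes. With set names as a replicate block or with siRNAs numbered 4 no member rose, beside 15.2% and 16.2% of all genes. In VM sets with and without the unlabelled library 2 rose, beside 26.3% and 25.6%. The count that fell was 22 with siRNAs numbered 2, beside 28.9%. It was 7 with those numbered 4, beside 19.4%, and 18 without DMSO_siNT 4-2V, beside 30.3%. Under the block 8 fell, beside 17.5% of all genes, and the calls of PCDHB5, PCDHB15, PCDHGA1 and PCDHGC5 were lost. Leaving out 1 library gave 1 that rose and 11 to 18 that fell, beside 22.3% to 27.9% and 26.6% to 30.3% of all genes. With the knockdown, 2 rose and 2 fell, beside 4.99% and 5.65% of all genes. DESeq2 called 4 higher and 3 lower, beside 6.86% and 7.88%. The 2 groups alone gave 3 higher (PCDHB10, PCDHB14 and PCDHB16) and 8 lower, beside 13.3% and 13.6%. PCDHB2 and PCDHB9 were not called higher there. The 2 groups alone with knockdown libraries of V sets gave 0 higher and 5 lower, beside 5.38% and 5.93%. The replicate block and siRNAs numbered 4 gave 0 higher and 0 lower in edgeR, PCDHGA2 included, with 1 and 2 at an unadjusted p under 0.05. Over all genes the block called 0.638% higher and 1.13% lower, and siRNAs numbered 4 called 4 of 13213 genes, so the zeros are no result about the members. SiRNAs numbered 2 gave 6 and 6, beside 11.8% and 13.9% of all genes. VM sets gave 3 higher and 5 lower, beside 8.76% and 12.2%, and with the unlabelled library 7 higher and 6 lower, beside 13.6% and 16.7%. Leaving out 1 library gave 0 to 6 higher and 1 to 6 lower, with 6 and 6 without DMSO_siNT 4-2V. Over all genes these fits called 2.89% to 11.7% higher and 4.02% to 12.9% lower. No member was called higher without 4OHT_siNT 4-1VM, knockdown 2-3V or the unlabelled library. The cause was not tested.

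Reversed signs were found in uncalled members. For PCDHGB4 in 4OHT_siNT they were −0.43 with siRNAs numbered 2, −0.10 and −0.11 in VM sets without and with the unlabelled library, −0.14 without DMSO_siNT 4-2V and −0.01 without 4-3VM, and leaving out 1 library spanned −0.14 to 0.26. PCDHGB5 gave −0.24 with siRNAs numbered 2 and PCDHGC3 0.60 with those numbered 4. With the knockdown PCDHB13 gave 0.28 under the block, 0.026 with siRNAs numbered 2, and 0.20 and 0.19 in VM sets without and with the unlabelled library. The log2 ratios of cluster sums moved by less than the spread between libraries under each alternative run, but this spread was wide. Its SD was 0.93 for gamma in 4OHT_siNT against DMSO_siNT and 1.04 for alpha with the knockdown. Between the siRNA numbers 2 and 4 the first of these ratios went from −0.71 to 0.78 and the second from 1.38 to 0.13. The rule therefore says little about how steady these ratios were. Alpha counts limit any statement on single alpha genes.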
